A study of Mus musculus with 8 samples.

Results

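In 177 genes of differentiating mouse embryonic stem cells (mESCs), the difference between CTCF-K20R and WT cells had opposite signs on day 0 and day 4. These members were chosen from the group means of the normalized counts. A gene was taken where its highest group mean was at least 50 and where the ratio (CTCF-K20R + 1)/(WT + 1) was at least 2 on 1 day and at most 0.5 on the other. Of 18094 genes in the table, 13479 had a group mean of at least 50, and 177 of these were members. In 86 genes (0.638% of the 13479) CTCF-K20R was higher on day 0 and lower on day 4, and in 91 genes (0.675%) it was lower on day 0 and higher on day 4. Because the members were selected on these ratios, their genotype differences are a description, with no test.

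The cells were of the E14Tg2A line, a male mESC line grown on mitomycin C-treated fibroblast feeders with serum, LIF and 2i. Day 0 libraries came from these mESCs. Day 4 libraries came from embryoid bodies (EBs), the aggregates that form in hanging drops after LIF is removed, in which the first lineages appear. WT cells carried unmodified CTCF, and CTCF-K20R cells carried a point mutation, introduced with CRISPR/Cas9, that replaces lysine 20 of CTCF with arginine. Each genotype was sequenced in 2 libraries per day, which gave 8 libraries. The sources do not say how many mutant clones stand behind the CTCF-K20R libraries, so the mutation cannot be told apart from differences between clones or cultures.

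CTCF is a DNA-binding zinc finger protein that, with cohesin, anchors chromatin loops and insulates neighbouring genes from each other's enhancers. Lysine 20, which can be acetylated, is the residue that the mutant replaces. During the first days of EB culture, mESCs leave pluripotency and some turn on the genes of the primitive streak, the embryonic structure through which mesoderm and endoderm form. Genes of neural and surface fates are alternatives to that route.

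Normalized counts summed to 19412700 in the library with the lowest sum and 21311500 in that with the highest. These sums are not read depths. From the steps between low values, 3 reads were worth 2.43 to 3.45 normalized counts in a library, and this was the limit of detection. It was 2.64 to 3.36 as a group mean. The WT libraries of each day differed by less than sampling noise (mean squared difference 0.314 of that expected on day 0 and 0.28 on day 4, against 4.00 and 4.35 for CTCF-K20R), so each WT pair was counted as 1 sample. The agreement of a WT pair is therefore no measure of biological spread. Ctcf itself had 3971 and 3939 normalized counts in WT mESCs, 4610 and 4408 in CTCF-K20R mESCs, 4241 and 4256 in WT EBs and 4926 and 4771 in CTCF-K20R EBs. These gene-level values do not show the mutated codon. The day labels were reflected in the lists of known genes. The sums were taken over listed genes with a mean of at least 10. Over 18 of 19 naive pluripotency genes the summed group means were 149220 in WT and 148260 in CTCF-K20R mESCs and 6703 and 15817 in EBs. Over 37 of 38 primitive streak and mesoderm genes they were 30089 and 28381, then 136270 and 22905.

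**Figure D1:**
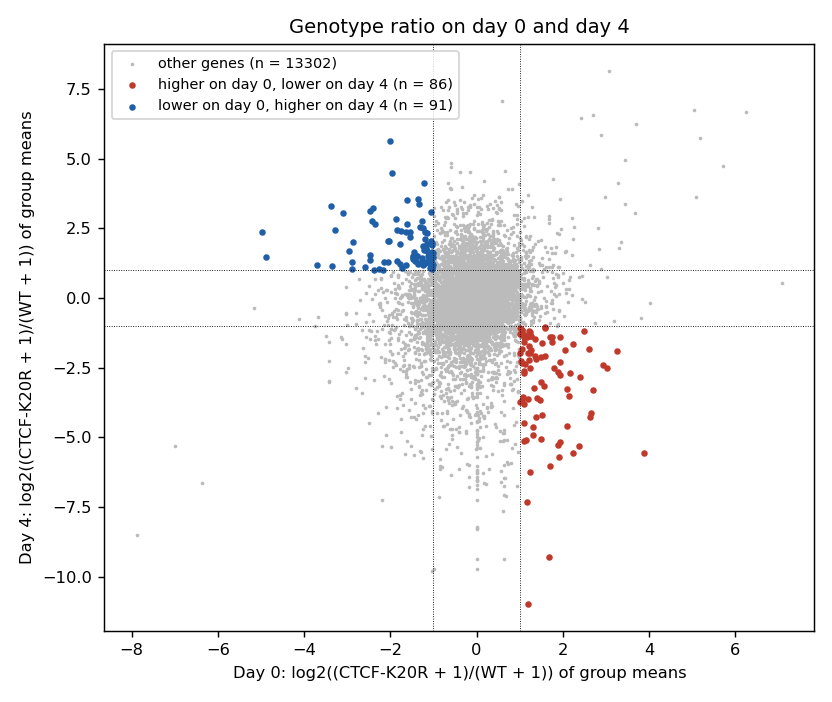
Each point is 1 of the 13479 genes with a group mean of at least 50. The x axis is the log2 ratio of CTCF-K20R to WT on day 0 and the y axis the same ratio on day 4, both from group means with 1 added, with dotted lines at a ratio of 2 and 0.5. The 86 members in red reach a log2 ratio of -10.98 on day 4, while the 91 members in blue stay at or below 5.62.

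Opposite ratios were the rarer outcome among genes that differed on both days. Of 364 genes at least 2-fold higher in CTCF-K20R mESCs, 102 (28%) were also at least 2-fold higher in CTCF-K20R EBs, 86 (23.6%) were at least 2-fold lower there, and 176 lay between. Of 703 genes at most 0.5-fold in CTCF-K20R mESCs, 259 (36.8%) stayed at most 0.5-fold in EBs and 91 (12.9%) were at least 2-fold. Over all 13479 genes, 8.43% were at least 2-fold and 10.9% at most 0.5-fold in EBs.

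The 2 directions came from different courses between the days. Among the 86 genes higher on day 0 and lower on day 4, WT values were at least 2-fold higher on day 4 than on day 0 in 76, within 2-fold in 6 and at least 2-fold lower in 4. In CTCF-K20R cells the same genes split into 30 at least 2-fold higher on day 4, 30 within 2-fold and 26 at least 2-fold lower. The median change between the days was 4.74 on the log2 scale in WT and 0.15 in CTCF-K20R cells. Over all 13479 genes both medians were 0.01, and 18.1% were at least 2-fold higher and 14.9% at least 2-fold lower on day 4 in WT, against 14.9% and 11.8% in CTCF-K20R cells. The rule holds the change in CTCF-K20R cells below that in WT for each of these members, so the shares are a description. The CTCF-K20R median near 0 came from changes both ways, and only 30 of the 86 genes were higher on day 4 in WT and within 2-fold in CTCF-K20R cells.

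Among the 91 genes lower on day 0 and higher on day 4, WT values were at least 2-fold lower on day 4 in 52, within 2-fold in 20 and at least 2-fold higher in 19. CTCF-K20R values were at least 2-fold higher on day 4 in 50, within 2-fold in 20 and at least 2-fold lower in 21. The median change was -1.96 in WT and 1.69 in CTCF-K20R cells. This direction therefore held several courses, from genes at least 2-fold lower on day 4 in both genotypes (21 genes) to genes that were at least 2-fold higher on day 4 in both (19 genes) and genes that were lower in WT and higher in CTCF-K20R cells (11 genes). The change between the days in WT sets 1 sample against 1 and has no replicate check.

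**Figure D2:**
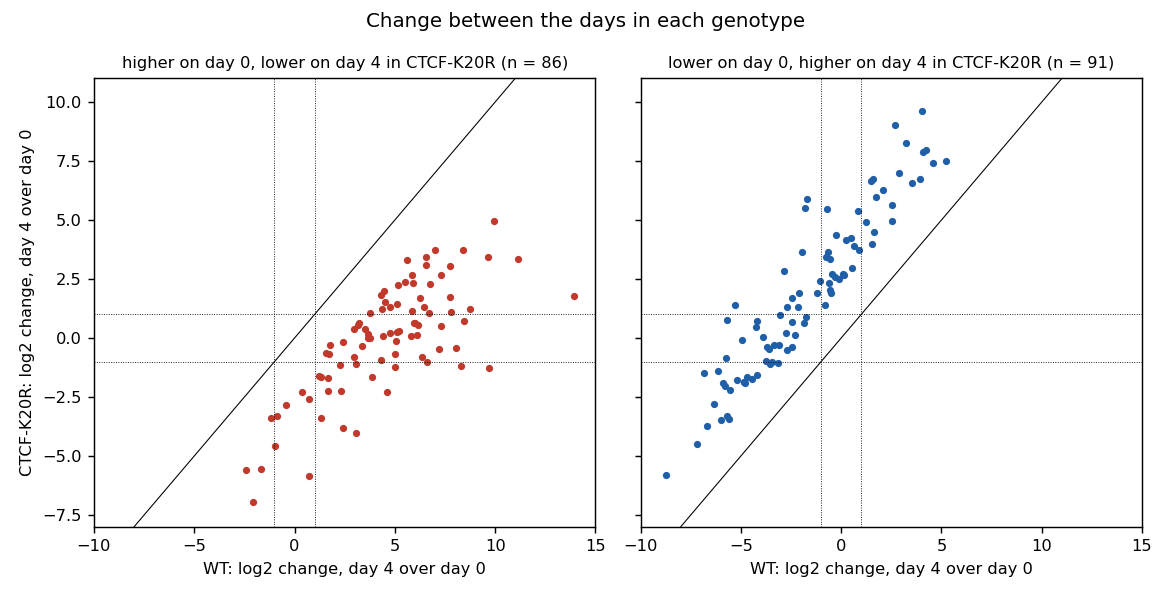
For each member, the x axis is the log2 change from day 0 to day 4 in WT and the y axis the same change in CTCF-K20R cells, from group means with 1 added. Dotted lines mark a 2-fold change and the diagonal marks equal change in both genotypes. The 86 genes on the left lie below the diagonal, mostly to the right of the WT 2-fold line, and the 91 genes on the right lie above it and spread over both sides of 0.

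The day 0 ratios of the first direction rested on low values. The median WT mESC mean of the 86 genes was 6.49 normalized counts, and the median log2 ratio on day 0 was 1.39, against -2.50 on day 4. On day 0 both genotypes were over the limit of detection in 52 of the 86 genes, only CTCF-K20R was in 19, and neither was in 15, for which the day 0 difference cannot be told from counting error. On day 4 both were over the limit in 76 and only WT in 10. Both CTCF-K20R libraries lay above both WT libraries on day 0 in 76 of the 86 genes and below both on day 4 in all 86. Over the 13479 genes, 39.8% had both CTCF-K20R libraries above both WT libraries on day 0 and 42.4% had both below on day 4. The rule used these same libraries, so nothing is read from the comparison.

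In the second direction the values were higher. The median WT mESC mean was 84.6 normalized counts, and the median log2 ratios were -1.42 on day 0 and 1.56 on day 4. On day 0 both genotypes were over the limit in 75 of the 91 genes, 1 of them in 12 and neither in 4. On day 4 the counts were 76, 10 and 5. On day 0 the CTCF-K20R pair was entirely below the WT pair in all 91 genes and in 40.3% of the 13479, and on day 4 it was entirely above in 88 genes and in 45% of the 13479. With all 4 groups over the limit, 49 and 61 genes remained in the directions.

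A single library decided part of the membership. When each library was left out in turn, 43 of the 86 genes and 54 of the 91 met the rule in every case. Leaving out CTCF-K20R mESC library 1 or 2 removed 21 or 18 of the 86 genes and 13 or 10 of the 91. Both conditions, all 4 groups over the limit and membership without any 1 library, were met by 23 genes of the first direction, among them Gsc, Msx2, Meis2, Cdx1, Nrp2, Bmp1, Fbln2, Scml2 and Ndn. They were met by 35 genes of the second direction, among them Enpp2, Sox3, Neurod1, Unc5a, Atp2b2, Kcnj3, Thy1, Tdh, Prdm16 and Hlf. The opposite case is shown by Cr2, the complement receptor 2, which had 115 and 0.9499 in CTCF-K20R mESCs against 20.9 and 16.9 in WT, so that library 1 alone put it above WT. In the second direction Sgsm3 had 95.7 and 0 in CTCF-K20R mESCs, 122 and 105 in WT mESCs, 33.1 and 0 in CTCF-K20R EBs and 0 in both WT EB libraries.

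Close to the ratio of 2, Usp3, a histone deubiquitinase, was just inside the first direction with group means of 341.9 in WT mESCs, 687 in CTCF-K20R mESCs, 1175 in WT EBs and 551 in CTCF-K20R EBs (log2 ratios 1.00 and -1.09). Fam107b was just outside, with log2 ratios of 0.999 and -1.42. In the second direction Mup6 was just inside (-2.17 and 1.00), and D1Pas1 was just outside (-0.997 and 3.23).

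Promoters are shown next for members that carry the pattern, since CTCF and lineage factors act on such regions. RefSeq windows (GRCm38.p6, 250 bases before to 50 bases after an annotated start) matched 123 of the 177 members by symbol, with 75 windows for the first direction and 76 for the second. The letters of the CTCF core motif (the letters AGGGGGC, the variant AGAGGGC, the variant AGGTGGC or the variant AGATGGC, on either strand) were in 21 of the 75 windows (28%) and in 26 of the 76 (34.2%), against 27.6% of all 32851 windows. The T-box letters AGGTGTGA were in 1 of 75 windows (1.33%), that of Mesp1, and in 0 of 76, against 1.28% of all. The octamer ATGCAAAT, read by POU factors such as Oct4, was in 3 of 75 (4%) and 1 of 76 (1.32%), against 1.74%. TATAAA was in 13.3% and 15.8%, against 13.6%, and the GC box GGGCGG in 50.7% and 52.6%, against 35.7%. The letters GGGCGG can overlap the CTCF core letters. The windows held a median of 13 CpG in the first direction and 8.5 in the second, against 7 in all windows. All windows were not limited to the 13479 genes with a group mean of at least 50, from which the members came. Whether the members' shares differ from those of such genes was not tested. Such matches are descriptions of letters, and no binding was measured here.

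Of 32 members chosen for full description, 9 had a window with a CTCF core, T-box or octamer match, and 6 of these are printed 5′ to 3′ on the gene's strand, chosen to show each kind of match in factors of both directions. Capitals mark the matches. In the Gsc window (chr12:104473187-104473486, minus strand) and the Lhx1 window (chr11:84525485-84525784, minus strand) they mark CTCF core letters before the start.
Gsc: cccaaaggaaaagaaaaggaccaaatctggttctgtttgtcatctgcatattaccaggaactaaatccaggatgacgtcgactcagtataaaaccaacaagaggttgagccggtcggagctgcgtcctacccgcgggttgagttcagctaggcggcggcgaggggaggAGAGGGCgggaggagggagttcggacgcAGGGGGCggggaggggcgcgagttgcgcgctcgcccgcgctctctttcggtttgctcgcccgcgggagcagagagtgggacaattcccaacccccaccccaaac
Lhx1: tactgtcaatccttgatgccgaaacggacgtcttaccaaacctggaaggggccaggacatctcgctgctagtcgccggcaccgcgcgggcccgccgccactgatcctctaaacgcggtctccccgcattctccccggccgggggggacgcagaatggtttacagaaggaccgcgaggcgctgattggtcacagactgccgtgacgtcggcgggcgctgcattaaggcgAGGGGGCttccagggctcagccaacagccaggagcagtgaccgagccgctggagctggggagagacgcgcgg
The Mesp1 window (chr7:79793541-79793840, minus strand) has the T-box letters just after the start, and the Cdx2 window (chr5:147307200-147307499, minus strand) has a CTCF core and an octamer.
Mesp1: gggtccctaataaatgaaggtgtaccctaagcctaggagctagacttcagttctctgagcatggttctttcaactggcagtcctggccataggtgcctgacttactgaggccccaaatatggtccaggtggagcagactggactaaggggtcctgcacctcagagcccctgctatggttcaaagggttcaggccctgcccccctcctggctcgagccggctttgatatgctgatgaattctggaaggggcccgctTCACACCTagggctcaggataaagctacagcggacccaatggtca
Cdx2: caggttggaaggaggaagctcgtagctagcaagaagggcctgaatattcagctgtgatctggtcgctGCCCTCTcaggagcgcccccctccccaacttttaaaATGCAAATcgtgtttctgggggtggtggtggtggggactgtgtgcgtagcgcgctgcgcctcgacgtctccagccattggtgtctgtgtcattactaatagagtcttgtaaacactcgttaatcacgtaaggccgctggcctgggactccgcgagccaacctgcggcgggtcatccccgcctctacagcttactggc
The Neurod1 window (chr2:79456587-79456886, minus strand) and the Prom2 window (chr2:127541368-127541667, minus strand) belong to the second direction, and each has 1 CTCF core match.
Neurod1: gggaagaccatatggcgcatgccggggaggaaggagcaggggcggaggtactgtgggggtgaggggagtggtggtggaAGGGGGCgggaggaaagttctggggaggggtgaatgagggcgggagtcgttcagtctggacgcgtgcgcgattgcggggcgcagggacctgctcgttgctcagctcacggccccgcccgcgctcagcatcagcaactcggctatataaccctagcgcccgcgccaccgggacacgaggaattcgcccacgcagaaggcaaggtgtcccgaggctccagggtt
Prom2: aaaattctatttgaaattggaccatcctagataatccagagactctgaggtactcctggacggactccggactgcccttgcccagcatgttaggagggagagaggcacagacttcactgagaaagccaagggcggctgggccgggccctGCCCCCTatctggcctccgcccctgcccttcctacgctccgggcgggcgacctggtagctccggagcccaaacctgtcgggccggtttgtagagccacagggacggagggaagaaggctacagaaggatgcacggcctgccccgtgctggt

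Transcription factors that pattern the embryo were the largest named role group of the first direction, with 18 of the 86 genes (roles were assigned by hand after the values were seen). The role groups were not the same in the 2 directions. In the second, factors such as Sox3, Neurod1 and Prdm16 stand under nuclear factors and RNA-binding proteins. No share of a role over all genes was taken, so the groups are not compared between the directions. Their median log2 ratio was 1.61 on day 0 and -4.17 on day 4, and the median group means were 1.42 in WT mESCs, 5.80 in CTCF-K20R mESCs, 480 in WT EBs and 21.6 in CTCF-K20R EBs. WT EBs were at least 2-fold above WT mESCs in 16 of the 18, against 76 of all 86 genes of the direction. Both day 0 groups were at or under the limit in 6 of the 18. Values from here on are normalized counts, not scaled by gene length. Where 4 pairs of values follow a gene without group names, they are the library pairs of WT mESCs, CTCF-K20R mESCs, WT EBs and CTCF-K20R EBs.

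The streak and mesendoderm factors had the widest day 4 gap (gene positions are from GENCODE M21 on mm10). Lhx1 (chr11:84518284-84525535, minus strand), a LIM homeobox factor of the node and anterior mesendoderm, was at 0 in both WT mESC libraries and at 0.842 and 1.71 in CTCF-K20R mESCs, then at 15499 and 15709.5 in WT EBs and 6.65 and 6.78 in CTCF-K20R EBs. It was 2323-fold lower in CTCF-K20R EBs, and on day 0 both groups were under the limit, so no fold is given. Mesp1 (chr7:79792241-79793788, minus strand), a bHLH factor of cardiac and other early mesoderm, had 1.14 and 0.951 in WT mESCs and 5.57 and 5.61 in CTCF-K20R mESCs, then 1697 and 1693 in WT EBs and 2.398 and 1.07 in CTCF-K20R EBs. Mesp1 was at least 504-fold lower on day 4 and at least 1.79-fold higher on day 0, with no overlap between the libraries of the genotypes on either day. Mixl1, a homeobox factor of the streak, had 7.92 and 8.51 in WT mESCs and 14.1 and 27.6 in CTCF-K20R mESCs, and 3898 and 3889 in WT EBs and 60.6 and 40.3 in CTCF-K20R EBs. Its CTCF-K20R mESC libraries were further apart than their mean was from that of WT, and without library 2 it was no longer a member.

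Gsc (chr12:104471209-104473330, minus strand), the goosecoid homeobox factor of the organizer, was detected in every group. It had 5.79 and 4.84 in WT mESCs, 38.7 and 24.8 in CTCF-K20R mESCs, 931 and 936 in WT EBs and 20.5 and 24.5 in CTCF-K20R EBs, which made it 5.97-fold higher on day 0 and 41.5-fold lower on day 4. Evx1, an even-skipped homeobox factor of the posterior streak, was at 0 in both WT mESC libraries and at 0.9898 and 6.399 in CTCF-K20R mESCs. Its EB libraries had 2289.9 and 2267 in WT and 48.4 and 46.1 in CTCF-K20R, a 48.2-fold difference, while its day 0 ratio rested on library 2. Evx1 overlaps an antisense transcript, and since the use of strand in the counting is not given in the sources used here, reads of the pair cannot be told apart. In all, 43 of the 86 members, and 41 of the 90 annotated members of the second direction, overlap another annotated gene.

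The caudal factors, which pattern the posterior body axis, took different courses. Cdx1 had 180.4 and 184 in WT mESCs and 527 and 526 in CTCF-K20R mESCs, and lower values on day 4, 33.4 and 32.7 in WT EBs and 8.201 and 11.8 in CTCF-K20R EBs. Cdx2 had 7.93 and 7.57 and 27.3 and 14.4 on day 0 and 591 and 599.8 and 24.5 and 21.7 on day 4, in the same order of groups. The ratios of Cdx1 were 2.89-fold higher and 3.30-fold lower, from well-detected values, and those of Cdx2 were 2.69-fold higher and 25.8-fold lower. The remaining family member, Cdx4, was not a member, with group means of 8.77, 12.5, 13.1 and 8.32.

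The endoderm factors Foxa1 and Foxa2, forkhead proteins that open chromatin in endoderm, were both members. Foxa1 had 0 in both WT mESC libraries, 2.21 and 8.903 in CTCF-K20R mESCs, 216 and 209.6 in WT EBs and 18.7 and 22.8 in CTCF-K20R EBs, 10.2-fold lower on day 4. For Foxa2 the values were 1.97 and 1.64, 0 and 12.02, 2242 and 2244 and 74.03 and 73.3 in the same order. The CTCF-K20R mESC libraries of Foxa2 lay on both sides of WT, and without library 2 its day 0 log2 ratio was -1.49 instead of 1.32.

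Hand1, a bHLH factor of heart and extraembryonic mesoderm, had 0 in both WT mESC libraries and 0.999 and 1.02 in CTCF-K20R mESCs, all under the limit, and 211 and 225 in WT EBs against 19.3 and 11.99 in CTCF-K20R EBs. Irx3 and Six3, homeobox factors of the neural plate and forebrain, showed the same order. Irx3 had 0 in both WT mESC libraries, 3.38 and 2.25 in CTCF-K20R mESCs, 331 and 342 in WT EBs and 61.5 and 36.7 in CTCF-K20R EBs. Six3 had 0 in both WT mESC libraries, 2.23 and 1.29 in CTCF-K20R mESCs, 86.2 and 85.8 in WT EBs and 2.06 and 9.63 in CTCF-K20R EBs. For these 3 genes both day 0 groups were at or under the limit as means, and the day 4 differences were 13.9-fold, 6.86-fold and 14.7-fold. Irx3 and Six3 overlap antisense transcripts.

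Of the remaining factors of this group, Msx2 and Meis2 were clear of the limit throughout. Msx2, a homeobox target of BMP signalling, had 44.7 and 46.6 in WT mESCs, 151 and 204 in CTCF-K20R mESCs, 398 and 379 in WT EBs and 6.81 and 12.9 in CTCF-K20R EBs, 3.89-fold higher and then 39.5-fold lower. Meis2, a TALE homeobox cofactor, had 66.4 and 66.3, 309.7 and 200.2, 586 and 557 and 87.1 and 146 in that order. Msx1, the relative of Msx2, reached 1001 and 999 in WT EBs and 70.6 and 93.2 in CTCF-K20R EBs, but on day 0 it was above 0 in CTCF-K20R library 1 alone, at 3.27. Six2, Tlx2 and Prox1 completed the 18, with log2 ratios from 1.01 to 2.25 on day 0 and from -6.04 to -1.28 on day 4. Without CTCF-K20R mESC library 1 the rule no longer took Cdx2, Msx1 or Prox1, and without library 2 it no longer took Lhx1, Evx1, Foxa2, Mixl1 or Hand1.

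**Figure D3:**
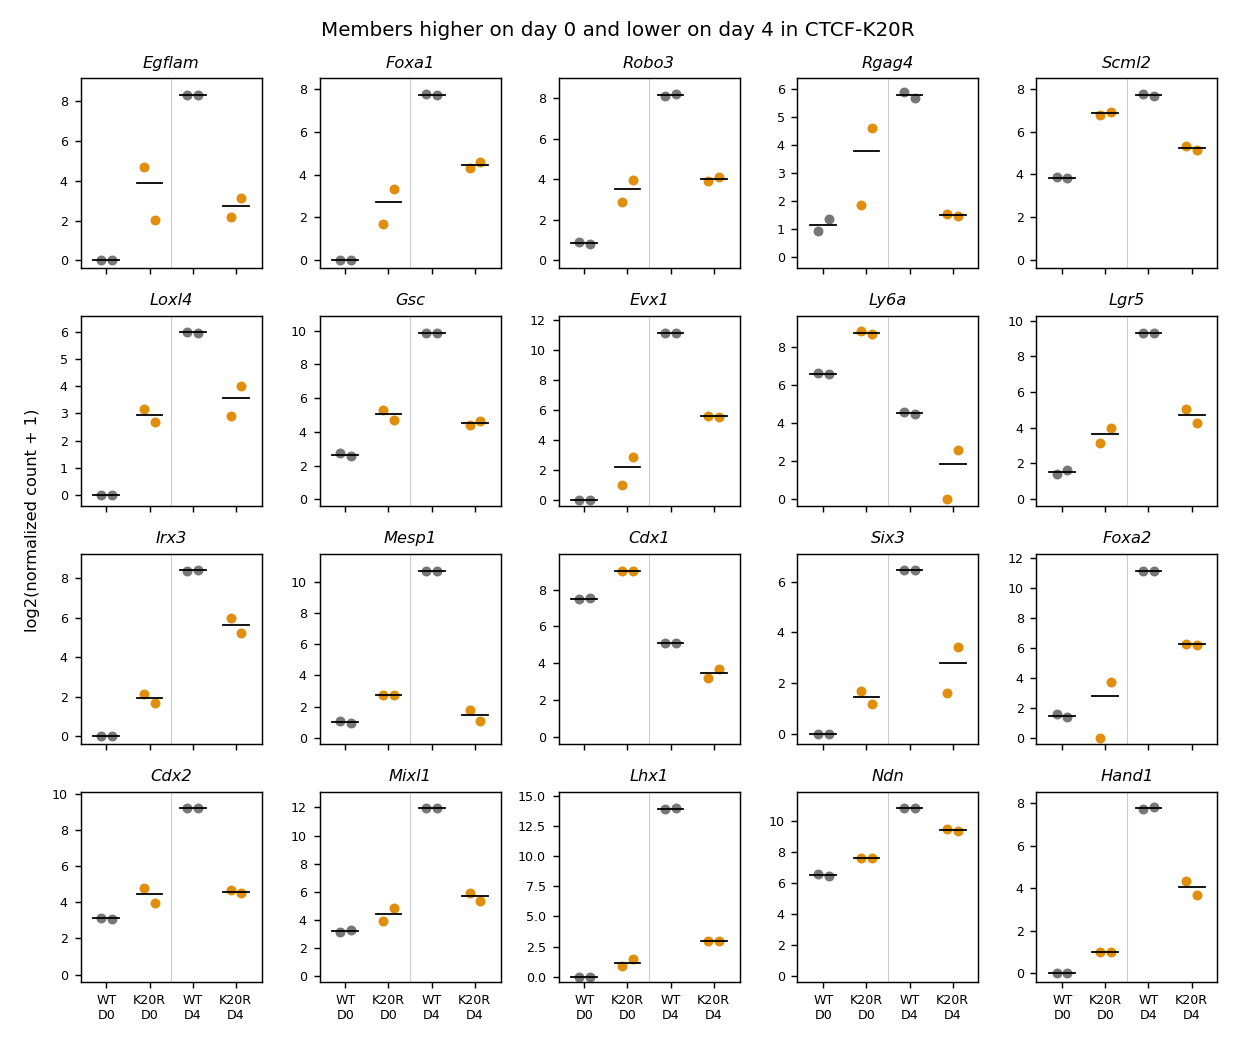
Each panel is 1 of the 20 members of the first direction whose values are given in every library, with log2(normalized count + 1) on the y axis and the 4 groups on the x axis (D0, mESCs; D4, EBs). Points are libraries and bars are group means. In most panels WT EBs stand far above the other 3 groups, while Cdx1 and Ly6a are highest in CTCF-K20R mESCs.

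Most genes that mark the streak were not members. The list of 38 primitive streak and mesoderm genes had 37 tested, of which 8 were members of the first direction and 0 of the second. In limma's test over all 15767 genes (log2 fold change above 1 or below -1 and adjusted p under 0.05), 1.19% of genes were higher and 2.6% lower on day 0, and 6.89% were higher and 8.65% lower on day 4. Of the 29 tested list genes that were not members, 0 were higher and 1 was lower on day 0, and 2 were higher and 23 lower on day 4, with median log2 fold changes of 0.01 and -4.22, against -0.01 and 0.01 over all genes tested. So the list was lower in CTCF-K20R EBs well beyond the members, and the members differ from the rest of it by the day 0 ratio on which they were chosen. The fit had few degrees of freedom, and without either CTCF-K20R EB library limma called 0 genes on day 0, where 4513 and 4507 had an unadjusted p under 0.05. The difference between the days was called for 6.84% of all genes in the positive direction and 6.04% in the negative. Calls of members are not given, since the rule used the same differences.

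Ligands and receptors gave 11 members of the first direction. All were at least 2-fold higher in WT EBs than in WT mESCs, as were 76 of all 86 genes of the direction. Nrp2, a coreceptor for semaphorins and VEGF, was among the best measured, with 462 and 470.2 in WT mESCs, 1018 and 996 in CTCF-K20R mESCs, 2517 and 2490.5 in WT EBs and 72.8 and 68.1 in CTCF-K20R EBs. It was 2.16-fold higher on day 0 and 35.5-fold lower on day 4. Its paralog Nrp1 was not a member, since it had 14.8 in WT and 7.59 ± 1.62 (SD, n = 2) in CTCF-K20R mESCs and 1088 in WT and 6.69 in CTCF-K20R EBs. Nrp1 was called lower on day 4 (log2 fold change -7.16, adjusted p = 0.000242 from limma) and was not called on day 0 (log2 fold change -0.89, adjusted p = 0.238 from limma). Kitl, the ligand of the KIT receptor, had 26.9 and 25.8, 69.4 and 50.3, 889.8 and 875 and 25.5 and 24.7 in WT mESCs, CTCF-K20R mESCs, WT EBs and CTCF-K20R EBs, and was no member without CTCF-K20R mESC library 1.

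Lgr5, an R-spondin receptor of the WNT pathway, had 1.65 and 2.07 in WT mESCs, 7.82 and 14.8 in CTCF-K20R mESCs, 643 and 638 in WT EBs and 32.8 and 18.5 in CTCF-K20R EBs. Its relative Lgr4 ran the other way without meeting the rule, at 2402, 1543, 1048 and 2700 as group means, with log2 fold changes of -0.64 on day 0, too small for a call, and 1.36 on day 4 (adjusted p = 0.0058 and 0.000152 from limma). Robo3, an axon guidance receptor, had 0.863 and 0.7205 in WT mESCs, 6.43 and 14.3 in CTCF-K20R mESCs, 276 and 287 in WT EBs and 14.2 and 16.1 in CTCF-K20R EBs. The genotypes did not overlap on either day for Lgr5 or Robo3. Ret, Ednra, Wnt9b, Il10rb, Cd84, Cd72 and Cr2 were the others, and Ednra and Wnt9b had both day 0 groups at or under the limit.

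The 9 matrix and adhesion genes were all at least 2-fold higher in WT EBs than in WT mESCs. This is near the direction's own share (76 of 86) and is no trait of the role group. Egflam, a secreted matrix protein, had the largest day 0 ratio of the direction, with 0 in both WT mESC libraries, 24.6 and 3.14 in CTCF-K20R mESCs, 309.8 and 313 in WT EBs and 3.54 and 7.69 in CTCF-K20R EBs. Loxl4, a lysyl oxidase that crosslinks collagen and elastin, had 0 in both WT mESC libraries, 7.91 and 5.38 in CTCF-K20R mESCs, 62.5 and 60.96 in WT EBs and 6.54 and 15.2 in CTCF-K20R EBs. Egflam library 1 was far above library 2 in CTCF-K20R mESCs. Both genes were over the limit there as group means, at least 4.45-fold and at least 2.13-fold higher than in WT. Bmp1, the procollagen C-proteinase, had 10.2 and 12.3, 29.4 and 27.5, 570.5 and 552 and 155 and 149.6 in the 4 groups, 2.53-fold higher and 3.68-fold lower. Fbln2, Tgfb1i1, Itga8, Emilin2, Coch and Fat4 had day 4 log2 ratios from -5.72 to -1.60.

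Some fibroblast genes were also lower in CTCF-K20R EBs. Of 25 listed fibroblast markers 19 were tested, among them the member Thy1. Of the 18 that were not members, 0 were higher and 1 lower on day 0, and 1 was higher and 7 lower on day 4. The summed level of the 23 markers found in the table was 57423 to 57980 in WT mESC libraries, 50887 to 51354 in CTCF-K20R mESCs, 60958 to 61201 in WT EBs and 10033 to 10694 in CTCF-K20R EBs. Without Fn1, which early embryonic cells also express, the sums were 10641 to 10716, 6274 to 6503, 14951 to 15105 and 6431 to 6718. Vim alone had group means of 7512, 4373, 7048 and 1359 in the same order of groups. Of the 23 markers, 5 were at 0 in each WT mESC library, and 5 and 3 in the CTCF-K20R mESC libraries. Col3a1, a defining fibroblast collagen, was at 0 in WT mESCs, and had means of 3.83 in WT EBs and 42.6 in CTCF-K20R EBs. Postn was at 0 in every mESC library and in CTCF-K20R EBs. Other collagens were present in mESCs, with WT and CTCF-K20R means of 16.7 and 33.3 for Col1a1 and 27.1 and 16.9 for Col1a2. The part of feeder cells in the matrix members was not tested. In such bulk samples fewer cells of a type and less RNA per cell cannot be told apart.

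Other nuclear and chromatin proteins gave 8 members. Scml2, an X-linked Polycomb group protein, had 13.5 and 13.1 in WT mESCs, 109 and 120.5 in CTCF-K20R mESCs, 213 and 206 in WT EBs and 38.7 and 33.8 in CTCF-K20R EBs, 8.64-fold higher on day 0 and 5.78-fold lower on day 4. Baz1a, a subunit of ISWI chromatin remodelers, had 124 and 154, 421 and 415, 1286 and 1349 and 634 and 656, well detected in all groups but close to the rule's limit on day 4. Prdm6, a SET domain family member, had 259.5 and 266 in WT EBs and 1.31 and 0 in CTCF-K20R EBs and was under the limit in all mESC libraries. Cbx8, Nfe2l3 and Usp3 had day 4 log2 ratios between -1.40 and -1.09.

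Ndn, the necdin gene of the imprinted Prader-Willi domain, was the 1 member on a list of 32 imprinted genes, which does not hold every imprinted gene. It had 94.02 and 88.9 in WT mESCs, 199.8 and 196 in CTCF-K20R mESCs, 1839.6 and 1834 in WT EBs and 722 and 663 in CTCF-K20R EBs, 2.16-fold higher and 2.65-fold lower with no overlap. Peg12, of the same domain but not on the list, lies 115302 bases away start to start. It was also a member, with 52.1 and 57.1, 136 and 102, 442 and 438 and 76.3 and 59.6. Other genes of the domain did not share the course, since Snurf had group means of 10.5, 6.11, 102.5 and 359, Magel2 had 9.69, 4.41, 1122 and 1541, Mkrn3 had 131.0, 138.1, 251.8 and 203.0, and Ube3a had 1636, 1526, 1768 and 1868. Snrpn, which has more than 1 entry, was lower on day 0 and higher on day 4, opposite to Ndn. Its group means were 3387, 1416, 8035 and 12612 in 1 entry and 884, 521, 1272 and 3478 in the other. On day 0 the 20 genes nearest to Ndn had a median of -0.55 (log2 fold change), opposite in sign to Ndn.

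Genes of cilia and axonemes gave 7 members, Ttll3, Efcab1, Catip, Cfap70, Drc7, Nme5 and Pifo, with median group means of 4.14, 10.8, 131.0 and 8.40. Catip, a ciliogenesis-associated protein, had 85.3 and 71.3 in WT mESCs, 202 and 243 in CTCF-K20R mESCs, 131 and 131 in WT EBs and 3.52 and 2.34 in CTCF-K20R EBs, and so was at least 39.0-fold lower on day 4. The regulators of motile cilia, which were read after these values were seen, were split. Foxj1, the master factor of motile cilia, was no member, at 24.7 in WT mESCs, 9.36 in CTCF-K20R mESCs, 2361 in WT EBs and 51.7 in CTCF-K20R EBs (day 4 log2 fold change -5.49, adjusted p = 0.000466 from limma), and Ccno had a log2 fold change of -4.27 (adjusted p = 0.0032 from limma). Gmnc and Trp73, which act upstream of multiciliation, were members of the second direction. Of the other regulators read, Rfx3 was lower on day 4, with 1652 in WT EBs and 378 in CTCF-K20R EBs. Myb was higher, with 134.8 and 1231. Mcidas, with 29.4 and 8.37, and Rfx2, with 170.7 and 121.2, were not called on day 4.

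The remaining 33 genes of this direction have varied or unassigned roles, with day 0 log2 ratios from 1.05 to 3.26 and day 4 ratios from -5.28 to -1.08. Ly6a, the surface protein Sca-1, is 1 of them and was highest in mESCs, with 97.1 and 94.3 in WT mESCs, 456 and 408 in CTCF-K20R mESCs, 22.5 and 21.2 in WT EBs and 0 and 5.01 in CTCF-K20R EBs. Rgag4, a gene derived from a retrotransposon, had 0.928 and 1.55, 2.66 and 23.03, 58.8 and 49.8 and 1.88 and 1.79, and its day 0 place rested on CTCF-K20R library 2. Ctsc, cathepsin C, had 345 and 348, 714 and 726, 1657 and 1636 and 366 and 293. Gm2026, a predicted gene, had 9.81 and 17.3, 91.3 and 59.6, 277 and 305 and 27.97 and 51.1. Both were clear of the limit in all groups and did not overlap between the genotypes. In this class 27 of the 33 were at least 2-fold higher in WT EBs than in WT mESCs, against 76 of all 86. The rule was met without any 1 library by 15 of the 33. The others were 1700088E04Rik, Nek5, B3galt1, Myrfl, Gm11549, Pxylp1, Slc39a2, Aard, Zcchc12, Fam160a1, Tmem132d, Slco3a1, Serpinb9b, Tnfaip2, Kcna6, Rhbg, Pde1c, Kank4os, Dnaja4, Sh3bp5, Fam101b, Tuba8, Slc24a3, Adcy2, 1700030N03Rik, Efcab6, Fam189a2 and Gm26901, beside Peg12.

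**Figure D4:**
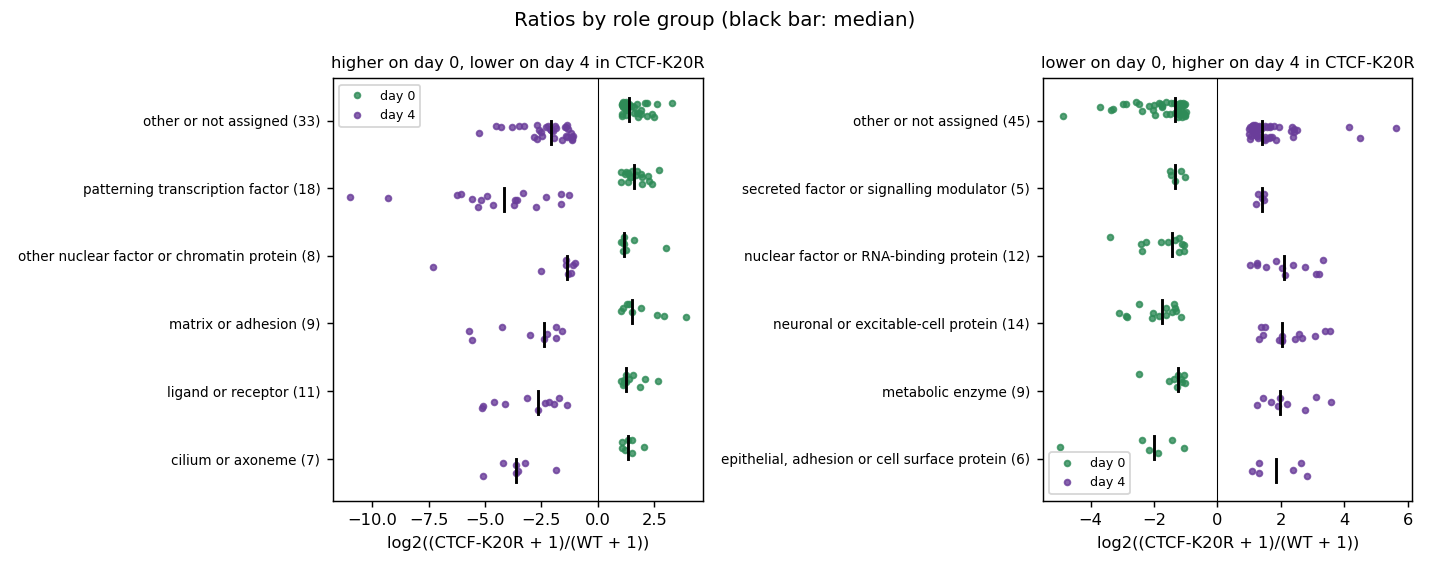
The x axis is the log2 ratio of CTCF-K20R to WT, with 1 added to each group mean, for each member by role group (number of genes in brackets), on day 0 in green and day 4 in purple. Black bars are medians. Patterning transcription factors and cilium genes have the lowest day 4 medians on the left (-4.17 and -3.64), and the groups on the right have day 4 medians between 1.40 and 2.09.

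In the second direction, neuronal and excitable-cell proteins were the largest named group, with 14 of the 91 genes and median log2 ratios of -1.74 and 2.03 on days 0 and 4. The genotypes did not overlap on either day in the 14, as in nearly every gene of this direction by its selection (on day 0 40.3% of the 13479 genes had both CTCF-K20R libraries below both WT libraries, and on day 4 45% had both above). Their median group means were 19.5 in WT mESCs, 4.59 in CTCF-K20R mESCs, 18.1 in WT EBs and 115 in CTCF-K20R EBs. In CTCF-K20R cells 11 of the 14 were at least 2-fold higher on day 4 than on day 0, and in WT 6 were higher and 4 lower.

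Hrh3, a histamine receptor of neurons, had 26.5 and 23.8 in WT mESCs, 0.751 and 3.36 in CTCF-K20R mESCs, 15.0 and 15.1 in WT EBs and 142 and 124 in CTCF-K20R EBs. Unc5a, a netrin receptor, had 128 and 121, 33.9 and 25.5, 17.5 and 18.4 and 72.95 and 79.9 in that order, 4.19-fold lower and then 4.26-fold higher. Fgf14, an intracellular FGF family protein that binds sodium channels, had 3.43 and 2.86 in WT mESCs and 0 in both CTCF-K20R mESC libraries, too close to the limit for a fold, and 28.3 and 30.8 in WT EBs against 128 and 121 in CTCF-K20R EBs. Hrh3 and Unc5a did not overlap between genotypes on either day, nor did Fgf14.

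Other members of the group were further from the limit of detection. Atp2b2, a calcium pump of the plasma membrane, had 291 and 286 in WT mESCs, 44.3 and 33.4 in CTCF-K20R mESCs, 8.46 and 8.07 in WT EBs and 34.6 and 38.7 in CTCF-K20R EBs. It was 7.42-fold lower on day 0 and 4.44-fold higher on day 4. Kcnj3, an inward rectifier potassium channel, was higher on day 4 in both genotypes, with 144 and 143 in WT mESCs, 24.4 and 12.8 in CTCF-K20R mESCs, 627 and 604 in WT EBs and 1487 and 1558 in CTCF-K20R EBs.

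Camk2b, a calmodulin kinase, had 1861 and 1810.1, 789 and 856, 183 and 173 and 754 and 601 in the 4 groups. Others were Eef1a2, Cbln4, Nrsn1, Snph, Grm6, Astn1 and Syt4, of which Cbln4 and Nrsn1 had both day 0 groups at or under the limit. Cbln4, a synapse organizer, reached 121 and 88.9 in CTCF-K20R EBs against 8.84 and 7.47 in WT EBs.

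Nuclear factors and RNA-binding proteins gave 12 members, with median log2 ratios of -1.45 and 2.09. Sox3 (chrX:60891366-60893430, minus strand), a SOXB1 factor of the early neural plate, had 29.5 and 28.6 in WT mESCs, 3.52 and 5.697 in CTCF-K20R mESCs, 83.04 and 82.5 in WT EBs and 553 and 574 in CTCF-K20R EBs, 6.30-fold lower and then 6.81-fold higher. Its relatives Sox2 and Sox1 were called higher on day 4 and were not called on day 0. Sox2 had group means of 13135, 13178, 613 and 3216 (log2 fold change 0.00 on day 0 and 2.39 on day 4, adjusted p = 0.966 and 1.58e-05 from limma), and Sox1 had 129.8, 146.2, 1.64 and 46.9 (log2 fold change 0.17 on day 0 and 4.17 on day 4, adjusted p = 0.76 and 0.000505 from limma). The neural ectoderm list was split. Of its 12 tested genes that were not members, 0 were higher or lower on day 0 in limma's test. On day 4, 2 were higher (Sox1 and Pax6) and 2 lower (Fabp7 and Ncam1), with a median log2 fold change of -0.56. The members Irx3 and Six3 of this list belonged to the first direction.

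Neurod1, a bHLH factor of neurons and endocrine cells, had 73.3 and 68.5 in WT mESCs, 14.7 and 10.7 in CTCF-K20R mESCs, 17.4 and 17.4 in WT EBs and 181 and 158 in CTCF-K20R EBs. It overlaps Cerkl on the same strand, so part of its reads is uncertain. Gmnc, a geminin relative that starts multiciliated cell differentiation, had 69.7 and 82.3, 6.33 and 6.46, 1.06 and 0.895 and 15.1 and 22.3, 11.9-fold lower on day 0 and at least 7.09-fold higher on day 4. Trp73, the p73 factor, had 183 and 190.2, 66.5 and 111, 70.6 and 88.7 and 287 and 379, with wide gaps within the CTCF-K20R pairs, and it no longer met the rule without CTCF-K20R mESC library 1.

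Prdm16 was lower on day 4 in both genotypes, and Hlf clearly so in WT alone. Hlf, a PAR bZIP factor, had group means of 161.3, 69.7, 11.5 and 53.7. Its CTCF-K20R EB libraries were far apart (31.7 and 75.6), on both sides of the CTCF-K20R mESC mean. Prdm16, a zinc finger factor of stem cells and brown fat, had 528 and 493 in WT mESCs, 222 and 213 in CTCF-K20R mESCs, 20.2 and 17.03 in WT EBs and 72.9 and 64.3 in CTCF-K20R EBs. Cpeb1, which binds mRNA tails and controls translation in oocytes and neurons, was highest in CTCF-K20R EBs, with 172 and 163, 66.4 and 95.1, 74.2 and 127 and 817 and 923. Snai3, Foxr2, Zfp36l3, Zfp750 and Bcl11b made up the rest, with log2 ratios from -2.26 to -1.11 on day 0 and from 1.03 to 2.38 on day 4.

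Metabolic enzymes gave 9 members, of which 8 had all 4 groups over the limit. Tdh (chr14:63492347-63509092, minus strand), threonine dehydrogenase, an enzyme on which mESCs depend for folate-linked metabolism, had 14599 and 14596 in WT mESCs, 6002 and 6181 in CTCF-K20R mESCs, 246 and 243 in WT EBs and 1694 and 1601 in CTCF-K20R EBs. It was 2.40-fold lower on day 0 and 6.75-fold higher on day 4. Around Tdh the 20 nearest genes had medians of -0.95 on day 0 and -0.91 on day 4 (log2 fold change), so Tdh shared their sign on day 0 and had the opposite sign on day 4. Gm17232, which overlaps Tdh on the opposite strand, was also a member, and reads of the 2 cannot be told apart. Of the 17 other naive pluripotency genes tested, 0 were higher or lower on day 0 in limma's test, and 8 were higher and 3 lower on day 4.

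Enpp2 (chr15:54838901-54952892, minus strand), autotaxin, which makes lysophosphatidic acid, had 25.8 and 26.2 in WT mESCs, 1.24 and 6.53 in CTCF-K20R mESCs, 442 and 446 in WT EBs and 3839 and 3855 in CTCF-K20R EBs, 6.70-fold lower and then 8.67-fold higher. Enpp3, of the same ectonucleotidase family, had 154 and 159, 48.5 and 58.4, 225 and 223 and 959 and 1085. Both were higher on day 4 than on day 0 in WT as well, and in both the genotypes did not overlap on either day. Aass, of lysine breakdown, had 319.7 and 314, 126 and 119.7, 16.2 and 16.8 and 189 and 222, 12.5-fold higher on day 4. Gstp2, Ephx1, Aldh3a1, Ckmt1 and Cbr3 had day 0 log2 ratios from -1.26 to -1.02.

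**Figure D5:**
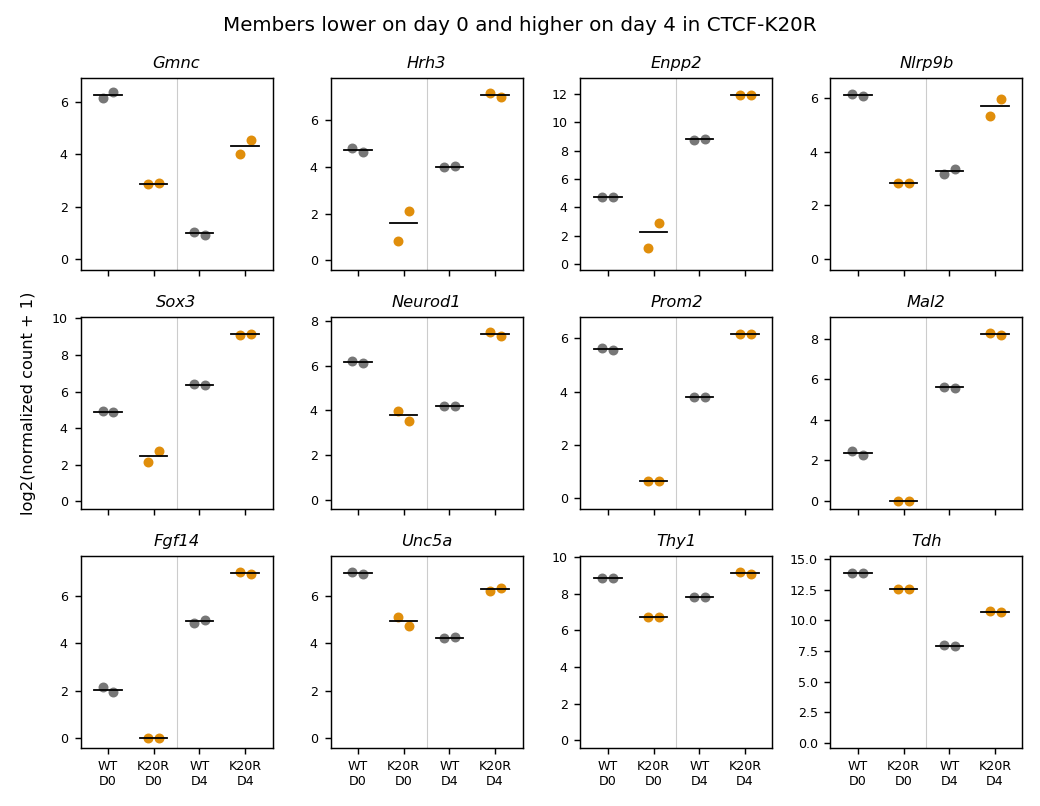
Each panel is 1 of the 12 members of the second direction whose values are given in every library, with log2(normalized count + 1) on the y axis and the 4 groups on the x axis (D0, mESCs; D4, EBs). Points are libraries and bars are group means. CTCF-K20R points lie below WT on day 0 and above WT on day 4 in each panel, with panel scales that differ (WT mESC means of 14597 for Tdh and 3.14 for Fgf14).

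Cell surface and epithelial proteins gave 6 members. Thy1, a GPI-anchored surface protein of fibroblasts, neurons and T cells, had 465 and 459 in WT mESCs, 104 and 103 in CTCF-K20R mESCs, 226 and 222 in WT EBs and 579.8 and 526 in CTCF-K20R EBs, 4.45-fold lower and then 2.47-fold higher. The part of feeder cells in its values was not tested. Prom2, a prominin of epithelial protrusions, had 49.4 and 47.04 in WT mESCs and 0.5601 and 0.5701 in CTCF-K20R mESCs, at least 14.8-fold lower, and 12.96 and 13.1 in WT EBs and 70.7 and 71.7 in CTCF-K20R EBs. The median log2 fold changes of the 20 genes nearest to Prom2 were 0.67 on day 0 and 0.62 on day 4, which is opposite in sign to Prom2 on day 0. Mal2, of epithelial transcytosis, had 4.53 and 3.78 in WT mESCs, 0 in both CTCF-K20R mESC libraries, 49.04 and 46.5 in WT EBs and 313 and 292 in CTCF-K20R EBs. Itgam, Itgb4 and Mcam were the others.

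Secreted factors and signalling modulators gave 5 members. Dact2, a modulator of WNT and Nodal signalling, had 1012 and 1007 in WT mESCs, 313 and 407 in CTCF-K20R mESCs, 152 and 150.1 in WT EBs and 419.7 and 426 in CTCF-K20R EBs, 2.80-fold in each direction. Lif, the cytokine that is also added to mESC medium, had 76.8 and 74.7, 32.1 and 25.9, 68.1 and 96.4 and 257 and 125, and its EB libraries differed widely within each genotype. Dtx4, Il17b and Cxcl14 had day 4 log2 ratios from 1.28 to 1.46.

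The other 45 genes of the second direction had log2 ratios from -4.88 to -1.01 on day 0 and from 1.00 to 5.62 on day 4, and 25 of them met the rule without any 1 library. Nlrp9b, an oocyte NLR protein and 1 of these, had 70.1 and 66.5 in WT mESCs, 6.06 and 6.14 in CTCF-K20R mESCs, 7.998 and 9.18 in WT EBs and 39.03 and 62.03 in CTCF-K20R EBs. It overlaps the locus Gm18877 on the same strand. Arl4c, a small GTPase, had 196 and 189 in WT mESCs, 87.03 and 74.4 in CTCF-K20R mESCs, 1115 and 1119 in WT EBs and 4054 and 4044 in CTCF-K20R EBs, higher on day 4 in both genotypes. Crabp2, which carries retinoic acid to the nucleus, had 97.7 and 96.7, 28.3 and 28.5, 181 and 183 and 393 and 378, and the kinase Lrrk2 had 86.9 and 96.5, 40.8 and 39.1, 142 and 122 and 361 and 285. The widest day 4 ratio was that of the transcript 2610528J11Rik, with 0.955 and 0.807 in WT EBs and 99.8 and 82.7 in CTCF-K20R EBs, a bound of at least 34.6-fold. The muscle ubiquitin ligases Trim63 and Fbxo32 were both members, at 355 and 365, 185 and 173, 54.0 and 53.3 and 131 and 118 for Trim63 and 17.01 and 18.0, 10.8 and 4.402, 107 and 109 and 277 and 259.6 for Fbxo32. Slc4a1, the anion exchanger of red cells, had 92.01 and 77.2 in WT mESCs and 7.44 and 3.79 in CTCF-K20R mESCs, while both EB groups were near or under the limit. The others were Slc26a5, Clca6, Fam196b, Tmem154, RP24-367P22.1, Ahnak2, Slc5a11, Gm5884, Capn3, Rassf6, E030010N08Rik, Spata31d1a, E130309D14Rik, Gm13110, Tmem229b, Myo1f, Pgc, Gsap, Gm17055, C330046G13Rik, Dok5, Fmn1, Ndst3, Sowahb, Tmem30b, Klk13, Arhgef38, Fam178b, Gm7976, Klhdc7a, Arhgef3, Adamts6, Rell2, Kctd14 and Mup6, beside Gm17232 and Sgsm3.

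Neighbouring genes were not used by the rule and could be tested. The nearest tested gene on each side that was not itself a member gave 341 genes, whose calls come from limma over all 15767 genes. On day 0, 17 of the 341 (4.99%) were called, where 1.19% of all genes were called higher and 2.6% lower, and on day 4, 58 (17%) were called, where 6.89% were higher and 8.65% lower. Next to the first direction, 4 of 169 neighbours were called with the member's sign and 5 against it on day 0, and 22 with it and 5 against it on day 4. Next to the second direction, 6 of 172 were called with the member's sign and 2 against it on day 0, and 17 with it and 14 against it on day 4. None of the 341 was called on both days with opposite signs, and 2 were called on both days in all. Leaving out neighbours that overlap the member, whose reads may be shared with it, a setting added after seeing the data, 15 of 316 were called on day 0 and 54 on day 4.

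On day 4 several neighbours of streak and endoderm factors were lower together with the member. Those named here share the member's sign, as did 39 of the 58 neighbours called on day 4, while 19 had the opposite sign. Lhx1os, 125 bases from Lhx1, had 258.9 in WT EBs and 3.45 in CTCF-K20R EBs (log2 fold change -5.89, adjusted p = 0.00252 from limma). The transcript 5730457N03Rik, which overlaps Evx1, had 979 and 12.4, but its reads cannot be told apart from those of Evx1, so it is no separate measurement. The transcript 9030622O22Rik, 2674 bases from Foxa2, had 115.7 in WT EBs and was at 0 in all 6 other libraries (adjusted p = 0.000998 from limma). Mesp2, 16939 bases from Mesp1, had 308 and 40.3 (log2 fold change -2.94, adjusted p = 0.00498 from limma). On day 0 these neighbours differed by less: Mesp2 had a log2 fold change of 0.29 (adjusted p = 0.706 from limma) and the others were at or near 0 in all mESC libraries.

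On day 0, Slc11a1, 5874 bases from Catip, was higher with it, at 54.2 in WT mESCs and 448 ± 28.6 (SD, n = 2) in CTCF-K20R mESCs (log2 fold change 3.02, adjusted p = 0.00291 from limma). Pdgfrb, 8951 bases from Cdx1, had 134.2 and 361 ± 10.7 (SD, n = 2; log2 fold change 1.42, adjusted p = 0.00866 from limma). Rragb, 7120 bases from Foxr2, had 1198 and 340.1 ± 8.65 (SD, n = 2; log2 fold change -1.81, adjusted p = 0.000958 from limma), and Ap3b2, 4934 bases from Cpeb1, had 946 and 284 ± 36.1 (SD, n = 2; log2 fold change -1.74, adjusted p = 0.00291 from limma). These 4 genes share the member's sign, as did 10 of the 17 neighbours called on day 0, while 7 had the opposite sign. Without either CTCF-K20R EB library no day 0 call was left for these 4 genes, since limma then called 0 genes on day 0. On day 4 none of the 4 passed (log2 fold changes 0.76, 0.21, 0.74 and 0.52, adjusted p = 0.0712, 0.414, 0.00146 and 0.0438 from limma), Rragb and Ap3b2 because their fold changes were too small.

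Members also lay near each other in places. Within 1 Mb, start to start, there were 18 pairs of members, 11 in the same direction and 7 in opposite directions. No such count was made for other genes, so no clustering is read from it. Six3 and Six2, 70669 bases apart, were both of the first direction, with both day 0 groups at or under the limit in each. Thy1 and Mcam, 91085 bases apart, and Mal2 and Enpp2, 267709 bases apart, were of the second. Mixl1 and Ephx1, 283167 bases apart, and Ttll3 and Atp2b2, 354571 bases apart, had opposite directions. The median log2 fold change of the 20 nearest genes was at least 0.3 in size for 8 of 86 windows on day 0 and 14 on day 4 in the first direction, and for 3 and 11 of 90 in the second. Windows around other genes were not counted for comparison.

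The members on the other lists are given beside the 0.638% and 0.675% of all 13479 genes that the directions held, and no list was tested. The endoderm list had 2 of 21 tested genes (Foxa1 and Foxa2), and the neural list had 3 of 15 (Irx3, Six3 and Sox3). The list of surface ectoderm and trophectoderm had 1 of 15 (Hand1), and that of fibroblast markers 1 of 19 (Thy1). The naive pluripotency list had 1 of 18 (Tdh). The lists of core and primed pluripotency, germline, 2-cell-like, ERK response, hypoxia and Hox genes had 0.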

How the data were processed

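RNA-seq libraries from mESCs and EBs of both genotypes were measured, 2 per group. Per the study's methods and the submitters' processing notes, the authors trimmed reads with Trim Galore, quantified transcripts with salmon on mm10, summed them to genes with tximport and normalized them with DESeq2. The deposited signal is therefore a count divided by a size factor per library, not a raw count, and it is not divided by gene length, so levels were not compared between genes.

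The members and gene lists were chosen with earlier results of these data known, and role groups and gene families were assigned after the values were seen. Full values are given for the 10 members of each direction with the largest smaller absolute log2 ratio of the 2 days, predicted names left out, and for members on a list. Neighbours are named where they and the member were called on the same day, and family members and further members by choice after their values were seen. Each WT pair was averaged to 1 sample. Differences outside the rule were tested with limma (version 3.58.1, R 4.3.3) on log2(value + 1) over 15767 genes with a mean of at least 10 and 6 samples, with Benjamini-Hochberg adjustment. Calls needed an adjusted p under 0.05 and a 2-fold change. The script was tested on simulated data. The study's methods describe 2 biological replicates. The labels name no separate cultures, and each WT pair, which differed by less than sampling noise, counted as 1 sample. The p-values therefore measure only the spread within the CTCF-K20R pairs and hold none of the WT spread. Libraries summed to between 19412700 and 21311500, and limits of detection cover counting error only. Alternatives were another minimum, added number, fold, filter and scaling, all 8 libraries, a replicate block and each library left out. Results for 2 members counted in the totals are not reported here.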

Additional observations from a re-analysis of the deposited data

Results flagged for a closer look

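For 14 of the genes that were no members but are named for their position or family, the genotype difference on day 4 and on day 0 was not the same. This was limma's test of the difference between the days over 15767 genes, of which 6.84% were called positive and 6.04% negative. The genes were named after their values were seen. Each value is the day 4 minus the day 0 log2 fold change of CTCF-K20R against WT. Among neighbours of members of the first direction it was -6.48 for Lhx1os, -6.24 for 5730457N03Rik, -6.87 for 9030622O22Rik, -3.23 for Mesp2, -2.26 for Slc11a1 and -1.21 for Pdgfrb, with adjusted p from 0.00502 to 0.0227 in limma. The transcript 5730457N03Rik overlaps Evx1, and its reads cannot be told apart from those of that member. Among neighbours of the second direction it was 2.55 for Rragb and 2.26 for Ap3b2 (adjusted p = 0.00021 and 0.00193 from limma). Among relatives of members it was -6.27 for Nrp1, -4.12 for Foxj1, -3.34 for Ccno, 2.00 for Lgr4, 4.00 for Sox1 and 2.39 for Sox2, with adjusted p from 0.000101 to 0.0343 in limma. Groups of 2 libraries were too small to look for outlying samples. What lies behind these differences was not tested.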

How the results depend on the processing

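The number of members followed the rule's settings. With a minimum group mean of 20 there were 134 and 140 members in the directions, with 10 added before the ratio 26 and 47, with a fold of 1.5 263 and 355, with a fold of 3 27 and 21, and with every library beyond the fold 41 and 48. With all 4 group means over the limit of detection, a setting chosen after seeing the data, 49 and 61 were left. Without any 1 library the rule gave 86 to 100 and 88 to 105 members. Among 704 alternatives for the log2 ratios of the 32 members described in full, 703 had the same sign, and the exception was Foxa2 on day 0 without CTCF-K20R replicate 2 (-1.49, against 2.21 without replicate 1). Against 598, 2451 and 2031 genes called on day 0, on day 4 and for the difference between the days, limma with all 8 libraries as separate samples called 1348 and 3340 on day 0 and for the difference, and adjusted p alone passed 2429, 6329 and 4200. With a replicate block the counts were 1344 and 3325. The numbers did not pair the samples, since the deviations of same-numbered libraries correlated between -0.0308 and 0.0296. Leaving out 1 library gave 0 to 618 genes on day 0, 1609 to 2467 on day 4 and 881 to 2057 for the difference. It was 0 on day 0 without CTCF-K20R EB replicate 1 or 2, 366 without CTCF-K20R mESC replicate 1, 1609 on day 4 without CTCF-K20R EB replicate 1, and 912 and 881 for the difference without CTCF-K20R EB replicate 1 and 2. Under quantile normalization 228 genes were higher and 322 lower on day 0, so that the share of higher calls was 41.5% instead of 31.4%. Of the neighbours of members, 36 instead of 17 were called on day 0 with all 8 libraries. The causes were not tested beyond what the settings themselves changed. At this depth day 0 ratios of genes near 3 reads were not detectable as differences.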
